A study of Mus musculus with 10 samples.

Results

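The gene group described here is p53 and 9 of the genes it is known to switch on under stress, measured in the gastrocnemius muscle of mitochondrial mutator mice. The members were listed by name as Trp53, Cdkn1a, Mdm2, Ccng1, Sesn1, Sesn2, Phlda3, Eda2r, Trp53inp1 and Gadd45a, and every probe set that named exactly 1 of them was taken. This gave 19 of 45037 probe sets, for 9 of the 10 genes. A probe set naming Trp53 alone was not found in the probe annotation, so the level of p53 mRNA was not analysed here. Each gene is represented by its lead probe set, the brightest of those that name it alone, and 18193 genes had one.

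The D257A group was 5 male mice, homozygous for a knock-in mutation in the exonuclease domain of Polg, the mitochondrial DNA polymerase γ, which impairs its proofreading. The WT group was 5 male mice with both Polg alleles intact. All 10 mice were 13 months old, on a mixed strain background that had been backcrossed to C57Bl/6J, and each gave 1 array without pooling. The mutation is carried in every tissue from conception, so a difference in muscle RNA may arise in muscle or elsewhere in the body.

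p53 is a transcription factor that is kept scarce by Mdm2 and accumulates after DNA damage, nutrient stress or oncogene signalling. It binds paired half-sites in DNA and raises genes that halt the cell cycle, repair DNA, restrain growth signalling or kill the cell. Several of its targets are also switched on without p53, by FoxO factors, ATF4 or glucocorticoids in wasting muscle, so their level is not a reading of p53 alone.

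Signals are arbitrary brightness units after each array was brought to the same trimmed mean of 500, and a difference is the mean log2 signal in D257A mice minus that in WT mice. A gene was called at a Benjamini-Hochberg adjusted p under 0.05 in limma, over the 22518 probe sets brighter than the median. Array brightness before scaling was 93.45 to 106.1 in D257A mice and 94.51 to 128.7 in WT mice, the top value being WT mouse 1-13M. The number of arrays limits the precision, and with 5 mice a group an exact permutation test cannot go below p = 0.00794. Polg itself had a signal of 857.8 ± 108.3 in D257A and 813.3 ± 167.9 in WT mice (SD, n = 5 each, limma adjusted p = 0.768), which does not check the labels because the mutation alters the protein and not necessarily the amount of RNA.

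The gastrocnemius label was checked because a line of the protocol names cochlea. The summed signal of 5 muscle fibre markers was 254744 to 275424 in D257A mice and 231178 to 307294 in WT mice, with 1 of 5 lower (Mb, myoglobin). The 5 cochlea markers summed to 231.8 to 405.2 in D257A and 261.7 to 356 in WT mice, and 3 of them (Otos, Tecta, Otoa) were below the brightness filter. Macrophage markers moved with genotype, with 3 of 6 higher (Mrc1, Cd163, Lgals3) and sums of 5871 to 8823 in D257A and 4540 to 5048 in WT mice. Of 4 fibroblast markers, 2 were lower (Col1a1, Col3a1), with sums of 18920 to 22209 in D257A and 19137 to 28045 in WT mice. Of these 6 marker calls, Mrc1 and Lgals3 held whichever mouse was left out. Those of Mb, Cd163, Col1a1 and Col3a1 were lost on leaving out any 1 of 8, 3, 4 and 6 of the 10 mice, in that order, WT mouse 1-12M among them each time and 1-13M never (limma adjusted p = 0.0511 to 0.0951). In whole muscle, fewer cells of a type and less RNA per cell cannot be told apart, and the part of these cell types in the results below was not tested.

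One library stood apart. WT mouse 1-13M carried D257A-like signals for several members, and leaving it out raised the number of called probe sets to 3439, or 15.3% of 22518, against 1662, or 7.38%, with all 10 mice. It also had the lowest summed muscle fibre (231178), macrophage (4540), fibroblast (19137) and adipocyte (610.9) markers of the 5 WT mice. Its log2 ratio of 3′ to 5′ control probe sets, a measure of RNA integrity, was -0.305, inside the WT range of -0.433 to -0.171. Counts of called genes are therefore given with and without it. Because this mouse was singled out on the members' own values, smaller p-values and a lack of overlap without it are partly built in. The values without it are descriptions and not independent support.

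Promoter sequence is shown for some members whose windows held the motifs described below, because p53 acts through letters in the DNA. The windows are from RefSeq on GRCm38.p6 and covered 9 of the 10 members with 11 start sites, Trp53inp1 being the one with none. The search ran over 250 bases before and 50 bases after each start, on both strands, and the motifs were chosen after the sequences had been seen. Sites farther away, within the genes or upstream, were not searched. The p53 half-site, matched exactly by name to its standard consensus, was found in 6 of the 11 windows, against 8.36% of 32817 windows in the table. The p53 element, a pair of half-sites with no gap and at most 1 mismatch outside the core letters, contains the half-site and was found in 2 of the 11, against 0.067% of all windows. These belonged to Cdkn1a, 51 bases before its upstream start, and to Ccng1, 195 bases before its start. Below, the Cdkn1a stretch is chr17:29090729-29090978 on the plus strand and the Ccng1 stretch is chr11:40755287-40755536 on the minus strand, both 5′ to 3′, with p53 half-sites and elements in capitals.
Cdkn1a: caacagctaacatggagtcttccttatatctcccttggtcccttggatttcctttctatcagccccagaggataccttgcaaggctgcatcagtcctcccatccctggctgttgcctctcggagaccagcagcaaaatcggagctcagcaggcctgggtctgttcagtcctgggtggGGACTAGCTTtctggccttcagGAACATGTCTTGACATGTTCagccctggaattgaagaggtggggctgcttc
Ccng1: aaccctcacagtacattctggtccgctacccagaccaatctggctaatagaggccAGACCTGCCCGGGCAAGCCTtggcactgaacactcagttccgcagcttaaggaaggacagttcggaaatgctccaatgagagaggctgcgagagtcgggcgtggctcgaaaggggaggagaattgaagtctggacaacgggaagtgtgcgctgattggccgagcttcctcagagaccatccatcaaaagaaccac
The match in Cdkn1a is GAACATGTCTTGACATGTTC and that in Ccng1 is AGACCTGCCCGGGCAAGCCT. They are descriptions of letters, not shown here to be bound.

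FoxO factors, which drive wasting genes in fasted or unloaded muscle, prefer the letters TGTTTAC or, on the other strand, GTAAACA. These stood in 3 of the 11 windows, against 3.65% of all windows, and in Mdm2 the same window also held a half-site that did not overlap them. The windows with these letters are shown for Sesn1 and Eda2r, picked because these members rose. The remaining window with them was that of Mdm2, which was not called. Whether the letters bear on any signal was not tested. The Sesn1 stretch is chr10:41810585-41810614 on the plus strand, just after its first start, and the Eda2r stretch is chrX:97377210-97377459 on the minus strand, with the FoxO letters in capitals.
Sesn1: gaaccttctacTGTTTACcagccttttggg
Eda2r: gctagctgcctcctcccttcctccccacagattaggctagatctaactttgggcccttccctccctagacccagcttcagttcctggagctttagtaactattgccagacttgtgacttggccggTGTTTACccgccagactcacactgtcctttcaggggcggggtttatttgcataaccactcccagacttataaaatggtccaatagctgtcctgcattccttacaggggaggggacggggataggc
In Eda2r the letters lie 125 bases before the start. Sesn1 has a second start, whose window holds a half-site 173 bases upstream. Half-sites also stand 40 bases before the Gadd45a start, 186 before that of Mdm2 and 75 before that of Trp53. The windows of Phlda3 and Sesn2 held none of these motifs.

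Of the 9 members with a probe set, 2 rose in D257A muscle (Sesn1 and Eda2r), 1 fell (Phlda3) and 6 did not pass the test. Among all 11216 genes tested, 7.23% were called, 3.71% higher and 3.52% lower. The median difference of the members was 0.57 on the log2 scale, against -0.01 for all genes tested. Without WT mouse 1-13M, 4 members were higher (Sesn1, Cdkn1a, Gadd45a and Eda2r) and 1 was lower, with 16.1% of all genes called, 7.78% higher and 8.33% lower, and a member median of 0.67. The genotypes did not overlap for Phlda3 alone with all mice, where 3.93% of genes were higher and 3.47% lower without overlap, and without 1-13M also for Sesn1, Cdkn1a, Gadd45a and Eda2r, where those shares were 8.15% and 9.04%. The members did not move as a block, and the targets that moved differed in direction.

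**Figure D1:**
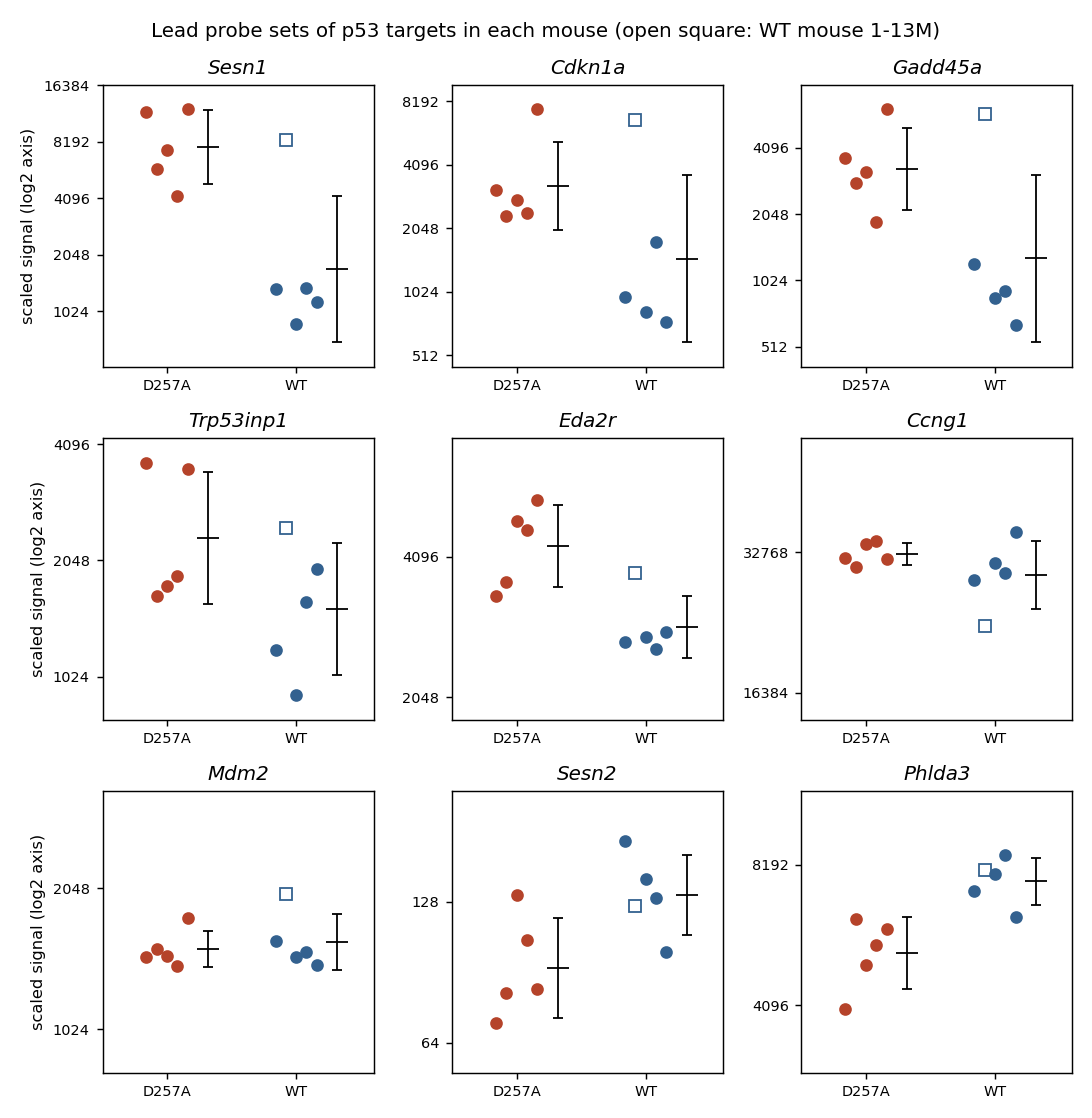
Scaled signal (log2 axis, arbitrary units) of the lead probe set of each member in 5 D257A mice (left, red) and 5 WT mice (right, blue), with the mean and SD of log2 signals as bars. The open square is WT mouse 1-13M, at 8347.9 for Sesn1 and 5854.0 for Gadd45a, far above the other WT mice, while for Phlda3 all 5 D257A mice lie below all 5 WT mice.

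The sestrins curb growth signalling through mTORC1 and limit oxidative damage, and Sesn1 (chr10:41810574-41908436) is a classical p53 target that FoxO factors also raise. Its signal in D257A mice was 11753 (2-17M), 5881 (2-21M), 7423 (2-25M), 4217 (2-27M) and 12201 (2-30M). In WT mice it was 1348 (1-12M), 8348 (1-13M), 874.3 (2-3M), 1358 (2-32M) and 1140 (3-18M). All 5 D257A mice stood above 4 of the 5 WT mice, and only WT mouse 1-13M made the groups overlap. The means were 8295 ± 3551 in D257A and 2614 ± 3212 in WT mice (SD, n = 5 each), a log2 difference of 2.15 (SE 0.50, 95% interval 1.08 to 3.22), or 4.44-fold, with a limma adjusted p of 0.0199. This was the largest difference of the 9 lead probe sets. The two-sided exact permutation test gave p = 0.0317.

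Without WT mouse 1-13M the Sesn1 difference was 2.72 (SE 0.26, limma adjusted p = 2.3e-05), or 6.59-fold, and the groups did not overlap. The other 4 WT mice averaged 1180 ± 227.1, with a highest value of 1358. A plain equal-variance test on the same log2 values did not call Sesn1 (Benjamini-Hochberg adjusted p = 0.106). The call ended when any 1 of mice 2-17M and 2-30M (D257A) and 1-12M, 2-32M and 2-3M (WT) was left out, with limma adjusted p between 0.0504 and 0.0589. Its other bright probe sets, 1433711_s_at and 1438931_s_at, rose by 2.19 and 1.92 on the log2 scale (limma adjusted p = 0.0239 and 0.0270). Both calls also ended on leaving out any mouse but D257A 2-21M, D257A 2-27M or WT 1-13M (limma adjusted p = 0.0515 to 0.0754), and with an equal-variance test or no variance trend, that of 1438931_s_at with a covariate for the mouse number too. These probe sets read the same gene on the same arrays, so they are not independent of the lead. The _s_ suffix marks probes that can match more than 1 transcript. The dim 1444376_at averaged 236.2 in D257A and 150.8 in WT mice, with a limma adjusted p of 0.354.

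Sesn2, its relative that answers to ATF4 and p53, ran the other way at a dim signal. The D257A mice had 70.46 (2-17M), 81.91 (2-21M), 132.4 (2-25M), 105.9 (2-27M) and 83.49 (2-30M), against 172.9 (1-12M), 125.7 (1-13M), 143.3 (2-3M), 130.5 (2-32M) and 100.2 (3-18M) in WT mice. Mice 2-17M, 2-21M and 2-30M lay below every WT mouse, and the groups overlapped through the other D257A mice. Its log2 difference was -0.52 (SE 0.23, 95% interval -1.02 to -0.01), which did not pass the test (limma adjusted p = 0.199). The other Sesn2 probe set, 1451599_at, was below the brightness filter, at 29.82 in D257A and 41.48 in WT mice. A fit over all probe sets without the filter gave 1451599_at a limma adjusted p of 0.847. Of Sesn1 and Sesn2, only the first passed, and the difference between them was not tested.

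Cdkn1a (chr17:29090979-29100722) encodes p21, the inhibitor of cyclin-dependent kinases that enforces arrest. Its signal in D257A mice was 3098 (2-17M), 2334 (2-21M), 2803 (2-25M), 2422 (2-27M) and 7511 (2-30M). WT mice had 961.9 (1-12M), 6669.9 (1-13M), 815.5 (2-3M), 1770.1 (2-32M) and 737.1 (3-18M). The 5 D257A mice were above 4 of the WT mice, but the fifth WT mouse, 1-13M, exceeded all D257A mice except 2-30M. The means of 3634 ± 2189 in D257A and 2191 ± 2538 in WT mice gave a log2 difference of 1.15 (SE 0.51, 95% interval 0.05 to 2.25) that did not pass the test (limma adjusted p = 0.189). Leaving out 1-13M gave 1.70 (SE 0.31, limma adjusted p = 0.00254), or 3.24-fold, with no overlap. Leaving out D257A mouse 2-30M instead gave 0.85 (limma adjusted p = 0.36), so the size of the difference also rested on that mouse. The dimmer Cdkn1a probe set 1421679_a_at differed by 1.18 (limma adjusted p = 0.367) with all mice and 1.85 (limma adjusted p = 0.0404) without 1-13M. On this probe set the genotypes still overlapped without 1-13M, with D257A mouse 2-17M at 153.2 and WT mouse 2-32M at 257.3. WT mouse 1-12M was very dim there, at 23.12.

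Gadd45a (chr6:67035096-67037407) binds stress kinases and cell-cycle proteins and is raised in denervated and fasted muscle. Its signals were 3680 (2-17M), 2843 (2-21M), 3198 (2-25M), 1887 (2-27M) and 6134 (2-30M) in D257A mice and 1214 (1-12M), 5854 (1-13M), 852.9 (2-3M), 917.8 (2-32M) and 639.3 (3-18M) in WT mice. The pattern matched that of Cdkn1a, with 2-30M the highest of 10 and 1-13M the second highest. The log2 difference was 1.35 (SE 0.48, 95% interval 0.31 to 2.39, limma adjusted p = 0.107), and 1.90 (SE 0.26, limma adjusted p = 3.74e-04), or 3.73-fold, without 1-13M. Its spread in WT mice, as an SD of log2 signals, was 0.38 without that mouse and 1.26 with it.

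Mdm2 (chr10:117688875-117710758), the ubiquitin ligase that p53 raises to limit itself, showed little difference. Its lead signal was 1526 ± 144.5 in D257A and 1586 ± 236.8 in WT mice (SD, n = 5 each), a log2 difference of -0.05 (95% interval -0.31 to 0.22, limma adjusted p = 0.848). The range of D257A mice, 1401 to 1773, lay inside the WT range of 1402 to 1994 save its lowest mouse. The sign of the lead probe set turned positive in 4 of 20 alternatives, among them leaving out 1-13M (0.04). Its second probe set 1427718_a_at differed by -0.10 (limma adjusted p = 0.800), and the dim 1457929_at was below the brightness filter. That last probe set averaged 12.14 in D257A and 40.53 in WT mice, and a fit over all probe sets without the filter gave it a limma adjusted p of 0.134.

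Ccng1, cyclin G1, a p53 target that promotes Mdm2 activity, was among the brightest genes on the array and differed little between the genotypes. The lead signal was 32552 ± 1760 in D257A and 29644 ± 4799 in WT mice, a log2 difference of 0.15 (SE 0.10, 95% interval -0.07 to 0.37, limma adjusted p = 0.416). Its 3 probe sets differed by 0.15, 0.08 and -0.09 on the log2 scale, and the limma adjusted p of the other probe sets were 0.707 and 0.688. The D257A mice ranged over 30483 to 34670 and the WT mice over 22813 to 36168, so the WT range enclosed that of the D257A mice. WT mouse 1-13M was the lowest of 10 for Ccng1. The 2 members whose windows held a p53 element, Cdkn1a and Ccng1, differed by 1.15 and 0.15 on the log2 scale, and the difference between them was not tested.

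Eda2r (chrX:97333837-97377234), the receptor for ectodysplasin A2 and an activator of NF-κB signalling, was 3369 (2-17M), 3619 (2-21M), 4882 (2-25M), 4670 (2-27M) and 5406 (2-30M) in D257A mice. In WT mice it was 2686 (1-12M), 3787 (1-13M), 2757 (2-3M), 2594 (2-32M) and 2827 (3-18M). The D257A mice were above 4 of the WT mice, and 2-17M and 2-21M fell below 1-13M. The means, 4389 ± 864.6 in D257A and 2930 ± 486.7 in WT mice, gave a log2 difference of 0.57 (SE 0.15, 95% interval 0.25 to 0.89), or 1.49-fold, at a limma adjusted p of 0.0329. Leaving out 1-13M gave 0.67 (SE 0.13, limma adjusted p = 0.00380) with no overlap, whereas the call ended when any mouse but 2-17M, 2-21M (D257A) or 1-13M (WT) was left out (limma adjusted p = 0.0516 to 0.0866). It also ended with the first digit of the mouse number as a covariate, the equal-variance test, no filter, no scaling or no variance trend (adjusted p = 0.0506 to 0.119).

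Phlda3 (chr1:135766085-135769134), a p53 target whose protein competes with Akt for membrane lipids, fell. Its signals were 4017 (2-17M), 6282 (2-21M), 5000 (2-25M), 5527 (2-27M) and 5972 (2-30M) in D257A mice, against 7210 (1-12M), 7993 (1-13M), 7808 (2-3M), 8603 (2-32M) and 6333 (3-18M) in WT mice. All 5 D257A mice lay below all 5 WT mice, a separation in that direction seen in 3.47% of genes, and 1-13M sat with the other WT mice. The means were 5360 ± 892.6 in D257A and 7590 ± 860.2 in WT mice, a log2 difference of -0.51 (SE 0.13, 95% interval -0.79 to -0.24, limma adjusted p = 0.0281), and an exact permutation p of 0.00794, the smallest this design allows. With any 1 of 2-17M and 2-25M (D257A) and 1-12M, 2-32M and 2-3M (WT) left out the call ended, with limma adjusted p of 0.0565 to 0.0772. Centring each array on its median, the same covariate, the equal-variance test and a fit with no variance trend also ended it (adjusted p = 0.066 to 0.0776). The median log2 signal of the arrays after scaling was 6.36 ± 0.06 in D257A and 6.49 ± 0.05 in WT mice. Its ranges were 6.3 to 6.436 and 6.431 to 6.545, in that order (two-sided exact permutation p = 0.0238). This genotype offset was left by the scaling and can bear on the call of any gene.

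Trp53inp1, a stress protein that cooperates with p53 in cell death and autophagy, was higher on average without passing the test. It was 3675 (2-17M), 1655 (2-21M), 1761 (2-25M), 1864 (2-27M) and 3533 (2-30M) in D257A mice and 1203 (1-12M), 2492 (1-13M), 916.1 (2-3M), 1602 (2-32M) and 1946 (3-18M) in WT mice. Mice 2-17M and 2-30M carried the highest values and the others overlapped with WT. The log2 difference was 0.61 (SE 0.29, 95% interval -0.01 to 1.22, limma adjusted p = 0.217), and 0.78 (SE 0.26, limma adjusted p = 0.0598) without 1-13M. The dim probe set 1416927_at showed -0.11 (limma adjusted p = 0.874).

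**Figure D2:**
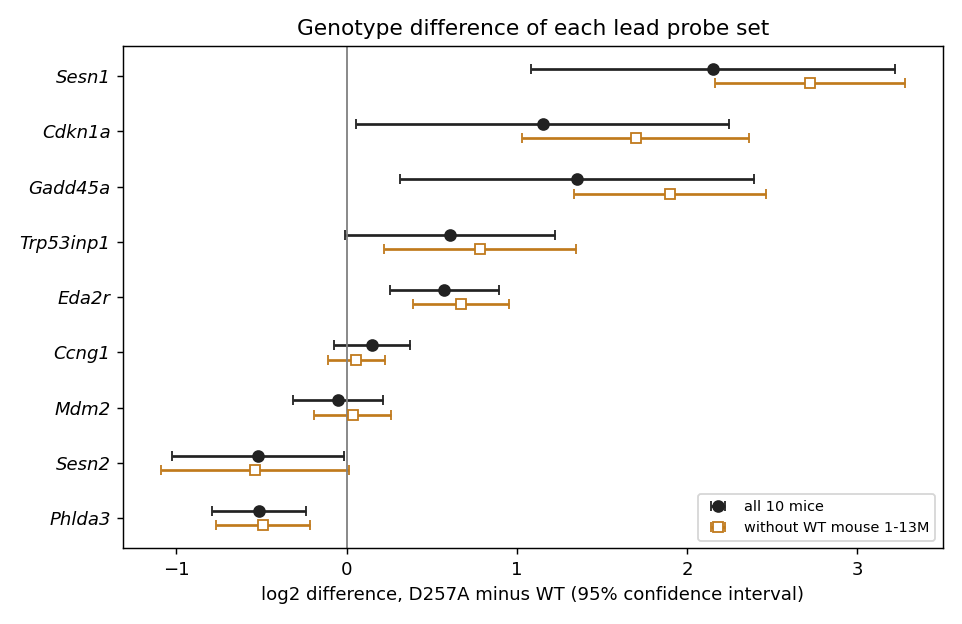
Difference of each member's lead probe set, as log2 D257A minus WT with its 95% interval, for all 10 mice (black circles) and without WT mouse 1-13M (open squares). Sesn1 lies farthest to the right at 2.15 and 2.72, and Cdkn1a and Gadd45a have narrower intervals without 1-13M.

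Across members, mouse 1-13M can be placed on a scale where 0 is the mean of the other 4 WT mice and 1 the D257A mean. It stood at 1.05 for Sesn1, 1.61 for Cdkn1a, 1.44 for Gadd45a, 1.11 for Trp53inp1 and 0.72 for Eda2r, but at -0.21 for Phlda3 and 0.18 for Sesn2. Its signal was D257A-like for the first 5 of these genes and WT-like for Phlda3 and Sesn2. In D257A mice the highest value of Sesn1, Cdkn1a, Gadd45a and Eda2r was in mouse 2-30M. Ccng1 and Mdm2 had too small a genotype difference for such a place to be read.

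**Figure D3:**
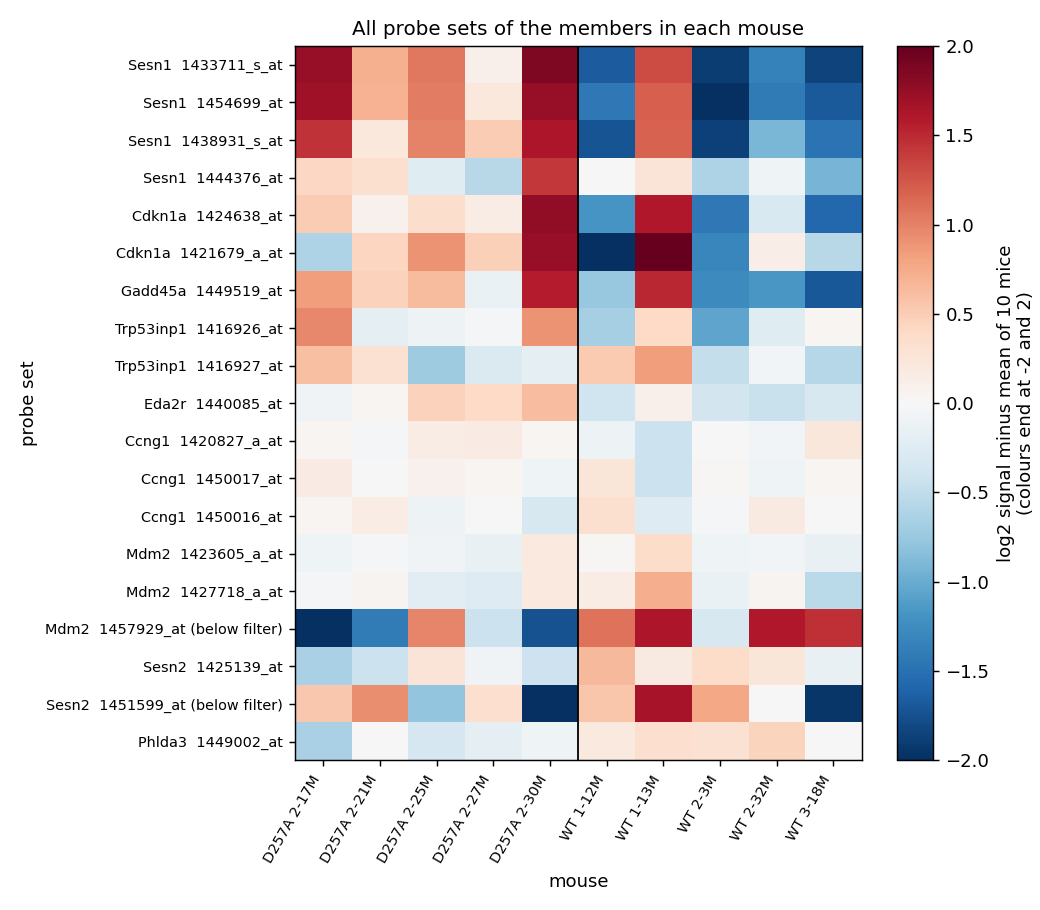
Log2 signal of all 19 probe sets of the members minus the mean of the 10 mice, with colours ending at -2 and 2, D257A mice in the left 5 columns and WT mice in the right 5. The column of WT mouse 1-13M is red for the lead rows of Sesn1, Cdkn1a and Gadd45a. Most D257A cells in those rows are above the mean too, but some are pale and Gadd45a in 2-27M is slightly below. The Ccng1 and lead Mdm2 rows are pale throughout.

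The genes with the profile nearest to Sesn1 over the 10 mice, by root mean square difference of centred log2 signals among 11215 genes, were Arhgap26 (0.45), Cebpd (0.46) and Gadd45a (0.48). Cebpd, a transcription factor raised by glucocorticoids and inflammation, had 11908 ± 7072 in D257A and 4790 ± 6094 in WT mice, with 15431 in 1-13M. For Eda2r the nearest were D930003E18Rik (0.13), Lats1 (0.14) and Pabpc1 (0.17), and for Phlda3 Igfbp6 (0.09), Lipt2 (0.11) and Mrps6 (0.11). Likeness over 10 mice is a description only, and these values share the same arrays.

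Regulators of p53 beyond the members were tested for 17 of 20 listed, with 0 higher and 3 lower, against 3.71% and 3.52% of genes, and a median difference of 0.05. Trp53bp1, which binds p53 and marks broken DNA, was 709.1 ± 206.3 in D257A and 1386 ± 235.3 in WT mice, a fall of 1.00 on the log2 scale (SE 0.20, limma adjusted p = 0.00987) with no overlap. Ppp1r13b, which encodes ASPP1 and steers p53 towards death genes, was 611.6 ± 50.1 in D257A and 923.3 ± 85.0 in WT mice (log2 difference -0.59, SE 0.12, limma adjusted p = 0.00952). Hipk2, a kinase of p53, was 4333 ± 679.9 in D257A and 6881 ± 1729 in WT mice (limma adjusted p = 0.0281). Its call ended without any 1 of D257A mice 2-17M, 2-21M and 2-25M and WT mice 1-12M, 2-32M and 2-3M, at limma adjusted p of 0.0589 to 0.0774. Without 1-13M, 1 regulator was higher, Mdm4, the partner of Mdm2 (limma adjusted p = 0.0046), and 3 were lower. Here and in the lists that follow, genes named as passing without 1-13M were named after their values were seen, and 7.78% of all genes were higher and 8.33% lower in that fit. With all mice, the shares of 3.71% higher and 3.52% lower stand beside the counts of those lists too.

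Other p53 targets were split by their role. Of 11 tested genes for cell death, 1 rose and none fell, with a median of -0.05: Aen, a nuclease that promotes apoptosis, was 2057 ± 236.5 in D257A and 1376 ± 146.2 in WT mice (log2 difference 0.58, SE 0.12, limma adjusted p = 0.0101) with no overlap. Without 1-13M, 1 rose and 1 fell (Ei24, limma adjusted p = 0.0360), and the median was 0.06. Of 6 for the cell cycle, none rose and 1 fell, with a median of 0.39. That gene was Dusp1, a phosphatase of stress kinases, at 3906 ± 849.8 in D257A and 5902 ± 991.3 in WT mice (limma adjusted p = 0.0327), a call that ended without any 1 of D257A mice 2-17M, 2-21M and 2-30M and WT mice 1-12M, 2-32M and 3-18M (limma adjusted p = 0.0537 to 0.0875). Without 1-13M, 2 cell-cycle genes rose (Ptp4a3 and Btg1, limma adjusted p = 0.00552 and 0.0194) and 1 fell, and with each array centred on its median 3 rose and 0 fell. Of 8 for DNA repair, limma called 0, with 1 higher and 1 lower at an unadjusted p under 0.05, and the equal-variance test called 0 after adjustment. Without 1-13M, 1 of 9 tested was higher (Xpc, limma adjusted p = 0.0162). The brightest genes of this list were Pcna, the replication clamp, at 3521 in D257A and 3469 in WT mice, and Rrm2b, the p53-induced ribonucleotide reductase subunit, at 1170 in D257A and 1453 in WT mice.

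Targets for metabolism and growth rose in 4 of 13 tested and fell in 0, against 3.71% and 3.52% of genes, with a median of 0.33. The count that rose was 1 with the covariate, the equal-variance test, no scaling or no variance trend. It was 2 with no filter, quantile normalization or only the mice whose number starts with 2, and 5 with array weights or median centring. Leaving out 1 mouse at a time gave 2 to 5, the 5 being without 1-13M (Sat1 joining, limma adjusted p = 0.0205). Igfbp3, which binds insulin-like growth factors, was 1514 (2-17M), 999.7 (2-21M), 1047 (2-25M), 862.5 (2-27M) and 1203 (2-30M) in D257A mice, against 418.3 (1-12M), 497.8 (1-13M), 395.7 (2-3M), 425.9 (2-32M) and 272.1 (3-18M) in WT mice. The groups did not overlap and 1-13M was the highest of the WT mice, for a log2 difference of 1.49 (SE 0.18, limma adjusted p = 6.21e-04). Lpin1, a lipid phosphatase and coactivator, was 24904 ± 2256 in D257A and 16566 ± 4073 in WT mice (limma adjusted p = 0.0148), with 1-13M at 23376. Gpx1, a peroxide-detoxifying enzyme (0.44), and Prkab2, a subunit of AMP-activated kinase (0.41), had limma adjusted p of 0.0408 and 0.0496. The Gpx1 call ended when any mouse but D257A 2-27M, D257A 2-30M or WT 1-13M was left out, and the Prkab2 call when any mouse but WT 2-3M or 1-13M was, with limma adjusted p of 0.0535 to 0.111.

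Relatives of the members were tested for 8 of 12, with 1 higher and 1 lower and a median of 0.18. Without 1-13M, 1 was higher and 2 were lower, Sesn3, the third sestrin, joining at a limma adjusted p of 0.0155. Cdkn1c, the p57 relative of p21, was 910.2 ± 178.2 in D257A and 440.8 ± 78.1 in WT mice (log2 difference 1.04, SE 0.16, limma adjusted p = 0.00247) with no overlap, 1-13M having 557.3. Trp53inp2, which acts in autophagy, was 5094 ± 544.3 in D257A and 10326 ± 3403 in WT mice (log2 difference -0.93, limma adjusted p = 0.0281), and 1-13M had 4439. Its call ended when any mouse but D257A 2-21M, D257A 2-27M or WT 1-13M was left out, at limma adjusted p of 0.0525 to 0.0789, and without 1-13M the difference was -1.21. Trp53inp2 was lower in D257A mice, and mouse 1-13M lay below even the lowest of them, at 4659.5. Cdkn1c was higher in D257A mice, and there 1-13M was the highest WT mouse without reaching the lowest D257A value of 727.7.

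Lists of genes that other stress factors control were tested for comparison. Of 14 targets of ATF4, 1 rose and none fell, with a median of -0.19: Asns, asparagine synthetase, was 357.9 ± 33.8 in D257A and 177.7 ± 16.6 in WT mice (log2 difference 1.01, SE 0.14, limma adjusted p = 0.00115), with no overlap. Without 1-13M, 3 rose and 2 fell, with a median of -0.04. Atf4 and Chac1 joined Asns (limma adjusted p = 0.00555 and 0.0472), and Vldlr and Mthfd2 fell (0.00617 and 0.0442). Of 11 genes of denervation and disuse, 2 rose and none fell, with a median of 0.33. These were Chrna1 and Chrnb1, subunits of the muscle acetylcholine receptor, at 1455 ± 231.3 and 2055 ± 184.2 in D257A and 595.9 ± 93.0 and 1046 ± 128.1 in WT mice (limma adjusted p = 4.31e-04 and 6.21e-04). Without 1-13M, 4 rose, the muscle ubiquitin ligases Fbxo32 and Trim63 joining (limma adjusted p = 0.00124 and 0.0273). For both receptor genes 1-13M stayed within the range of the other 4 WT mice.

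Of 17 FoxO and glucocorticoid genes, 1 rose and none fell with all mice, against 3.71% and 3.52% of genes. Without 1-13M 9 rose, with a median of 0.42 and 0.61 in that order. On the scale used above, 1-13M stood at 0.72 for Foxo1 and at 1.23 (Map1lc3b) to 1.71 (Cebpb) for the others that rose. Leaving that mouse out had to raise their differences, so the count of 9 is a description and not independent support. Foxo1, itself a wasting factor, was 5004 ± 2426 in D257A and 2092 ± 1233 in WT mice (log2 difference 1.34, SE 0.37, limma adjusted p = 0.0441). That call ended when any mouse but WT 2-32M or 1-13M was left out, at limma adjusted p of 0.0533 to 0.114. Cebpd did not pass with all mice at a difference of 1.87 (limma adjusted p = 0.0850), and without 1-13M it was 2.48 (limma adjusted p = 0.00164). Mt1, a metallothionein raised by glucocorticoids, named after its values were seen, averaged 5747 in D257A and 3255 in WT mice, with 9684 in 1-13M. Its log2 difference of 1.17 did not pass with all mice (limma adjusted p = 0.169). Of the proliferation genes, 2 of 12 were bright enough to test, Aurka at 177.4 in D257A and 363.9 in WT mice and Mcm2 at 286.7 in D257A and 325.9 in WT mice. Limma called 0 of these, with 1 lower at an unadjusted p under 0.05, and the equal-variance test 0. Without 1-13M, Aurka was lower (log2 difference -1.32, limma adjusted p = 0.00359), and with array weights or the mice whose number starts with 2 alone 1 of these genes was also called lower.

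**Figure D4:**
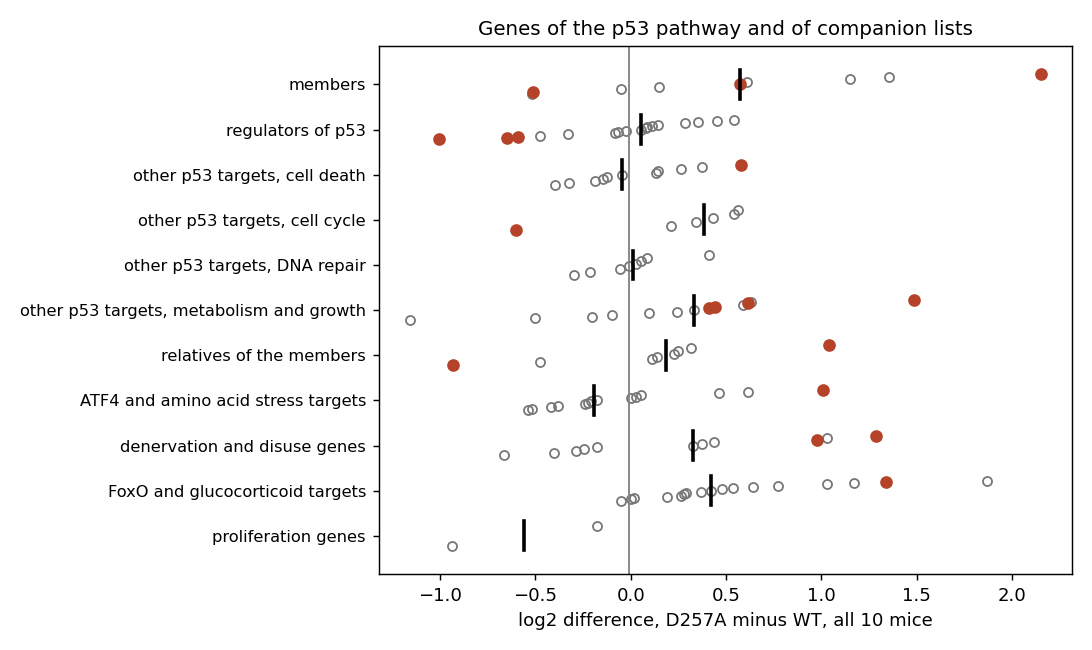
Log2 difference, D257A minus WT with all 10 mice, of each tested gene in the member group and in 10 lists, where red points passed limma at adjusted p under 0.05, open points did not and black bars are medians. The thin vertical line is the median of all genes tested, -0.01, and the members' bar stands at 0.57.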

How the data were processed

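RNA was extracted from gastrocnemius muscle of 10 mice and hybridized to Affymetrix Mouse Genome 430 2.0 arrays. The deposited values are linear intensity signals of 45101 probe sets, 1 column a mouse, made by the authors in GCOS 1.3. The methods give a scaling target of 500, which the columns do not meet, so each array was rescaled to a trimmed mean of 500 (2% left out at each end) and log2 taken. After 64 control probe sets were set aside, the 22518 of 45037 above the median mean log2 signal (6.26) entered limma (version 3.58.1, under R 4.3.3; lmFit, eBayes with trend, no covariate) with Benjamini-Hochberg adjustment. The brightness filter does not use genotype. Tables, exact permutation tests (252 splits, two-sided) and figures used Python 3.11.15 with SciPy 1.17.1, pandas 2.3.3, NumPy 2.4.6 and, for plotting, matplotlib 3.10.9. Scripts were tested on simulated data. Of the probe sets, 34945 name 1 gene, 932 several and 9160 none. Named genes were all members with every probe set, up to 4 called genes of each list by adjusted p, the brightest 2 of a list with none called, Polg, and the 3 nearest profiles to each called member. The members and lists were chosen with earlier results of these data known. The sources used here do not say which mice shared a litter, cage or day, and p-values measure the spread between these mice. All D257A mouse numbers start with 2, against 2-3M and 2-32M alone in WT mice, so the first digit is confounded with genotype. Alternatives were quantile normalization, median centring, no scaling, no filter, no variance trend, array weights, an offset of 32, the independent t-test that the methods name for comparing means (on log2 values with equal variances, choices made here, since the methods name other software for the arrays), the mice whose number starts with 2, the first digit of each mouse's number as a covariate, other probe sets of a member, and each mouse left out in turn.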

Additional observations from a re-analysis of the deposited data

Results flagged for a closer look

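In 18 tests for a mouse far from the rest of its genotype (9 lead probe sets in each genotype), 4 stood out, and chance alone picks about 1 in 20 such groups. These were the Sesn1 signal of 8348 in WT mouse 1-13M, the Eda2r signal of 3787 in the same mouse, its Gadd45a signal of 5854, and the Cdkn1a signal of 7511 in D257A mouse 2-30M. Signals are printed on the linear scale, but the gaps were measured on log2 values, where the gap to the nearest mouse was 0.805, 0.773, 0.711 and 0.758 of the range of the genotype, in that order, against a limit of 0.71 for 5 mice. All but 1 of the 4 came from WT mouse 1-13M, so they are not separate events.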

How the results depend on the processing

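The count of members higher in D257A muscle was 2 as reported, 4 with array weights and 1 with the first digit of each mouse's number as a covariate, with no filter, with no scaling and with no variance trend. The methods' t-test with Benjamini-Hochberg adjustment gave 0 higher and 0 lower, with 2 and 2 at an unadjusted p under 0.05, where limma had 4 and 2. The count of lower members was 1 as reported and 0 with median centring, the covariate and no variance trend. Leaving out 1 mouse at a time gave 0 to 4 higher and 0 to 1 lower. Their median log2 difference was 0.57, and 0.25 when all probe sets of a member were averaged. The cause of these differences was not tested. The covariate fit and the fit of mice whose number starts with 2 both gave a member median of 0.69, and they are not separate checks. Among the called genes of the pathway lists, Igfbp3, Cdkn1c, Asns, Chrna1, Chrnb1 and Ppp1r13b kept their calls under every alternative run, Aen lost its call with no scaling (adjusted p = 0.0923), Trp53bp1 with the covariate and the t-test (0.0534 to 0.0725), and the others under more settings. All 9 lead probe sets kept their sign under the 20 alternatives except Mdm2, which kept it in 16.

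Over all probe sets, 819 were called higher and 843 lower. Median centring gave 1599 higher and 418 lower and moved the median of all probe sets to 0.10. No scaling gave 356 and 856, with a median of -0.10. The covariate gave 291 and 271, the t-test 540 and 493, array weights 1858 and 2110, and no variance trend 515 and 615. The t-test called 4997 of 22518 probe sets (22.2%) at an unadjusted p under 0.05. Without WT mouse 1-13M the counts were 1655 and 1784. No paired analysis was possible because the sources used here do not say which mice shared a litter, cage or day.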
